A study of Mus musculus with 416 samples.

Results

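The loci of 10 core pluripotency factors were followed through DNA replication in single cells of mouse embryos: Pou5f1, Nanog, Sox2, Klf2, Klf4, Klf5, Esrrb, Tfcp2l1, Prdm14 and Sall4. Each gene was taken by name, and its locus was the 50-kb bin that holds the midpoint of the gene in GRCm38, with 0.5 Mb on either side. All 10 lay in bins that passed the filter on measured cells (at least 10 in every group), among 19406 protein-coding genes that did so. The embryos had the genotype (C57BL/6J xCBA) x DBA/2J and grew in culture to the 4-cell, 8-cell or morula stage, by which their age is given. Zygotes of every group had been injected 17 to 18 hours after hCG, either with a control siRNA (siCont) or with 1 siRNA against Rif1 (siRif1), each at 20 µM. Each stage thus had 1 siCont and 1 siRif1 group, every group carried an injected siRNA, and no uninjected embryo was analysed here. The level of Rif1 left after injection was not measured in the tables used.

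These 10 genes encode transcription factors known to hold early embryonic cells and embryonic stem cells in an unspecialised state. Pou5f1 (the gene of OCT4), Sox2 and Nanog form the centre of that network, and the Krüppel-like factors, Esrrb, Tfcp2l1, Prdm14 and Sall4 sustain it. DNA replicates in a set order during S phase, with active, gene-rich DNA usually early. RIF1 is known to hold late regions back by bringing protein phosphatase 1 to unfired origins.

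For each bin and cell the tables hold a state, 0, 1 or not measured, and 1 was read as replicated because bins with a gene midpoint held 1 more often than other bins in 6 of 6 groups. The replicated share of a locus is the percent of measured cells with state 1. It rises with S phase progress of the cells caught, so the mean over 46015 bins of the same group (43.02 to 50.5%) was subtracted to give the centred share, in points. The shift is the centred share in siRif1 minus that in siCont: below 0 the locus was relatively later in siRif1. Groups held 44 to 60 cells with states at 88.1 to 94.1% of bins each. No embryo, litter or batch is named for a cell, so each group is 1 sample, no test is given, and the 95% Clopper-Pearson intervals cover counting error only. For a shift that error alone had a half-width of 17.5 to 21.5 points over the 10 loci and 3 stages, and it was exceeded only by Klf2 at the 4-cell stage, Pou5f1 and Sall4 at the 8-cell stage and Sall4 in morulae. The share of all genes that exceed theirs was not counted, so this does not set these loci apart from other genes. Tables of replication states hold no expression, so the cell type of the blastomeres could not be checked against marker genes.

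Sequences upstream of the transcription start are shown for 3 loci between which the results differ: Pou5f1 and Klf2, the loci with the lowest shifts at the 4-cell stage, and Sox2, whose shifts ran from -4.82 to 4.87 points. They are the 250 bases before the start, 5′ to 3′ on the gene's strand, from RefSeq (GRCm38.p6), with CG dinucleotides in capitals.
Pou5f1, chr17:35505782-35506031, plus strand: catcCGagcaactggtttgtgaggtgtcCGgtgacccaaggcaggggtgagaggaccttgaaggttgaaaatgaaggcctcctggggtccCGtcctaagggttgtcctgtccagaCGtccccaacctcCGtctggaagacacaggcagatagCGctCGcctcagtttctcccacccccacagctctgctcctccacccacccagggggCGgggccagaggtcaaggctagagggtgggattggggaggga
Klf2, chr8:72318812-72319061, plus strand: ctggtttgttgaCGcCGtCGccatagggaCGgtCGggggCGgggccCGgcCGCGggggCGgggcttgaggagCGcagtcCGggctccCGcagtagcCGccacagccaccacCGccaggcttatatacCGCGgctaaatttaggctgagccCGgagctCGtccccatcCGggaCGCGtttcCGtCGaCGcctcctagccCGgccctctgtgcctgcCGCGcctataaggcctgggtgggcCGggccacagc
Sox2, chr3:34649745-34649994, plus strand: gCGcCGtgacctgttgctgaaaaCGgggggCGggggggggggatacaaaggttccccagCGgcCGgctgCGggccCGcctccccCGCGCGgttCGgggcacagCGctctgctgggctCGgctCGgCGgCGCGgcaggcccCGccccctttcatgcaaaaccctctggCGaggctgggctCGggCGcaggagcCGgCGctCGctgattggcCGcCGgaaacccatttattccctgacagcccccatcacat
A stretch of 250 bases lies far below the 50-kb bin, and no timing value here refers to it. The Pou5f1 stretch held 8 CG dinucleotides, that of Klf2 29 and that of Sox2 27, against a median of 6 over 32851 promoter entries, of which 92.1% held at least 1. Of the 10 genes, 7 matched an entry, without Klf5, Prdm14 and Sall4.

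In siCont embryos all 10 loci were replicated ahead of the genome mean at all 3 stages, as were 64.5% of all genes. Stage by stage the share of genes ahead of the mean was 68.4, 77.3 and 81.4%. Their median centred share was 14.7 points at the 4-cell, 23.3 points at the 8-cell and 22.99 points at the morula stage. All genes had medians of 6.52, 15.2 and 22.7 points, so the loci led the typical gene at the 4-cell and 8-cell stages and stood level with it in morulae. In percentile ranks among all bins the median locus stood at 84.2, 86.9 and 74.97. In siRif1 the median centred share was 11.3, 11.98 and 12.2 points at the 3 stages. Ahead of the mean were 8 loci at the 4-cell stage (63.4% of genes), 9 at the 8-cell stage (60.5%) and 10 in morulae (75.3%). All loci but Pou5f1 and Tfcp2l1, 8 of 10, were above the mean in all 6 groups, as were 45% of genes.

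**Figure D1:**
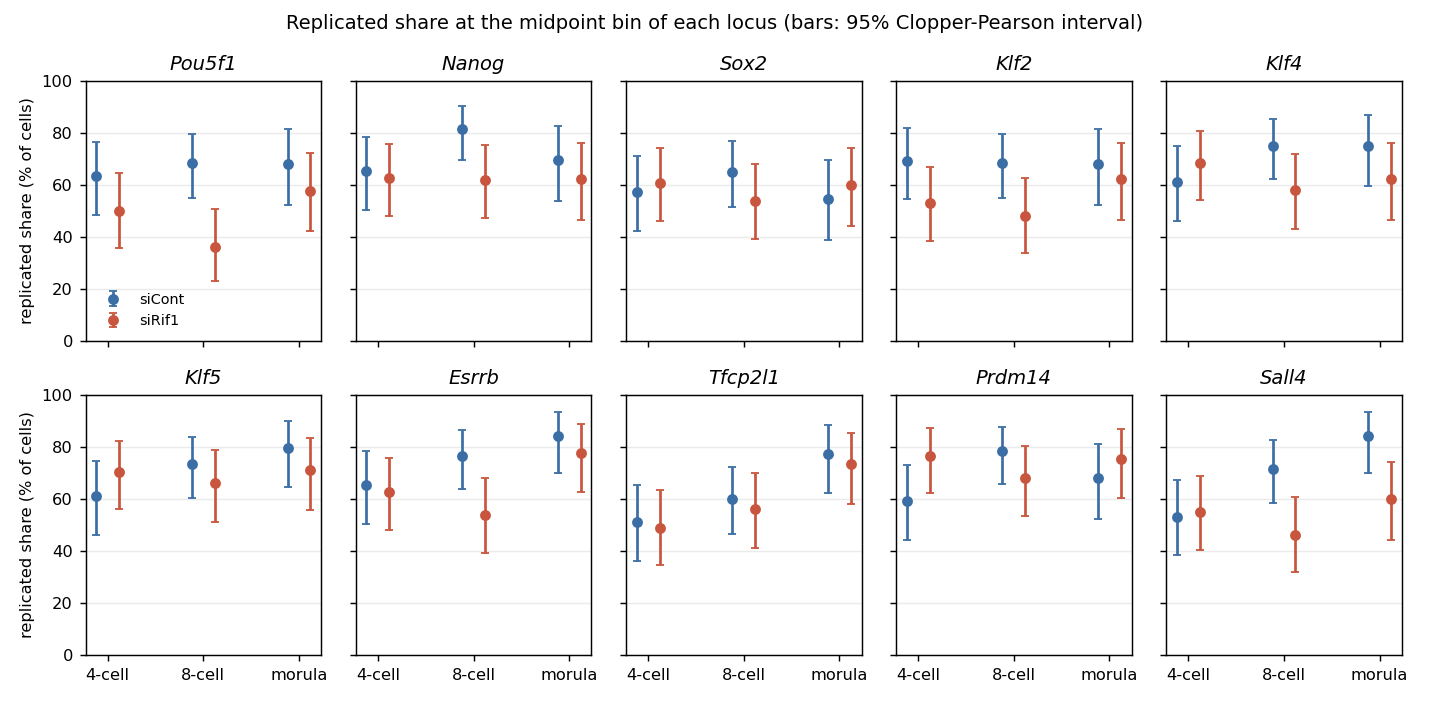
Replicated share (percent of measured cells) of the midpoint bin of each of the 10 loci, by stage, in siCont (blue) and siRif1 (red) cells; bars are 95% Clopper-Pearson intervals, which cover counting error only. The intervals of the 2 treatments are apart only for Pou5f1 at the 8-cell stage.

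The order of the loci differed between control stages. Klf2 was highest in 4-cell siCont embryos, replicated in 34 of 49 cells (69.4%), and Tfcp2l1 lowest, in 25 of 49 (51.02%). At the 8-cell stage Nanog led with 49 of 60 cells (81.7%), followed by Prdm14 with 47 of 60 (78.3%), and Tfcp2l1 was again last with 36 of 60 (60%). In morulae Esrrb and Sall4 shared the first place with 37 of 44 cells (84.1%), and Sox2 was last with 24 of 44 (54.5%). Neighbours in each order differed by less than their counting intervals, and at the 4-cell and 8-cell stages the intervals of all 10 loci overlapped. In morulae the interval of Sox2 (38.8 to 69.6%) lay just below that of Esrrb and Sall4 (69.9 to 93.4%). These are the lowest and highest of the order, and separate intervals ignore that all were read in the same cells. The share of other gene pairs with intervals apart was not counted.

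From the 4-cell to the morula stage the control loci with the largest gain were Sall4, which encodes a zinc finger partner of OCT4, and Tfcp2l1, a factor of the LIF-dependent network. Sall4 went from 26 of 49 cells at the 4-cell stage over 43 of 60 to 37 of 44 in morulae, and its centred share from 6.52 over 22.5 to 34.7 points. Tfcp2l1 went from a centred share of 4.48 over 10.8 to 27.9 points. Both gained over 20 points (28.2 and 23.4), as did 20.6% of all genes. In all, 8 loci were higher in morulae, against 80.3% of genes. Sox2 and Klf2 were the 2 loci with a lower centred share in morulae than at the 4-cell stage, by -5.44 and -4.05 points.
Step by step, the median change of the 10 loci in siCont was 9.08 points from the 4-cell to the 8-cell stage (all genes 5.198), with 9 loci up, against 71.6% of all genes. Centred on the group median it was 4.97 points (all genes 1.09), and on percentile ranks 3.64 (all genes 1.38), with 4 loci down. From the 8-cell stage to the morula it was -0.264 points (all genes 5.27), with 4 loci up, against 70.5%. The 2 steps share the 8-cell group. In the second step Nanog fell by 12.1 points, Sox2 fell by 10.6 and Prdm14 fell by 10.3, while Tfcp2l1 and Sall4 gained 17.1 and 12.2. On percentile ranks the second median was -11.2 points, and it lay above 0 with cells of 20 to 80% replicated, cells balanced by weights over 4 classes of percent replicated, cells thinned to matched percents and means over 21 bins (2.04 to 4.82).
In siRif1 the same 2 steps had medians of -0.191 points (5 loci up; 48.2% of genes) and 3.82 points (6 loci up; 65.5% of genes). From the 4-cell stage to the morula 6 siRif1 loci were up (67.2% of genes), and Tfcp2l1, with 24.8 points, was the 1 that gained over 20, as did 10.2% of genes.

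At the 8-cell stage every one of the 10 loci was replicated in a smaller share of siRif1 than of siCont cells, with differences from -32.3 to -4 points, in groups whose mean shares were 43.02 and 49.2%. Bins with a gene midpoint had mean shares of 47.2% in siRif1 and 59.7% in siCont. The share of all genes lower before centring was not counted, so this does not set the 10 loci apart. After centring, 9 of 10 loci were later, against 71.9% of all genes, with a median shift of -12.2 points against -7.49 points for all genes. On percentile ranks 6 loci were later and the medians were -8.34 and -7.30, so the distance from all genes was smaller on that scale. The medians were -12.3 and -7.47 points with balanced cells, and -10.1 and -6.49 with thinned cells. They were -11.0 and -8.07 with cells of 20 to 80% replicated, and -9.52 and -4.86 when centred on the group median. Over 21 bins the median of the loci was -7.73 points, and that of all genes was not computed. Pou5f1 alone was later by 20 points or more, a size called large here and reached by 18.2% of genes. A count of 1 in 10 is below that background. None was earlier by as much, against 0.989% of genes. Genes early in controls were later as a rule: with bins ranked into 5 equal classes by control timing at the other 2 stages, genes of the earliest class, which held 6 of the loci, had a mean shift of -13.4 points, and those of the next class, which held the other 4, one of -9.38. Over the 10 loci the median difference from the mean of the own class was 1.24 points, and 5 lay below their class.

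Of the central trio, Pou5f1 was replicated in 41 of 60 siCont cells (68.3%, interval 55.04 to 79.7%). After Rif1 siRNA it was replicated in 18 of 50 (36%, interval 22.9 to 50.8%). The intervals were apart, as they were, with siRif1 lower, for 15.8% of genes (0.0515% with siRif1 higher). Its centred share went from 19.1 to -7.02 points, a shift of -26.2, and its percentile rank from 79.7 to 33.9. Pou5f1 was the 1 locus of the 10 that fell behind the genome mean in 8-cell siRif1 embryos, and its shift differed from the mean of its class by -16.8 points. Nanog was replicated in 49 of 60 control and 31 of 50 Rif1-siRNA cells, with a shift of -13.5 points beside a class mean of -13.4. It stayed ahead of the genome in siRif1, at 18.98 points. Sox2, with 39 of 60 and 27 of 50 cells, had a shift of -4.82 points. The trio thus held both the lowest shift of the list and one nearer to 0 than that of the median gene, and the intervals of Nanog and Sox2 overlapped between treatments.

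The Krüppel-like factors, zinc finger proteins that act together in stem cells, differed among themselves at this stage. Klf2 was replicated in 41 of 60 control and 24 of 50 Rif1-siRNA cells (shift -14.2 points), and Klf4 in 45 of 60 and 29 of 50 (shift -10.8 points). Klf5, which is known to act in both lineages of the blastocyst, was replicated in 44 of 60 and 33 of 50 cells, a shift of -1.15 points. Klf5 stood 12.2 points above the mean of its class. All of these intervals overlapped between treatments.

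Among the supporting factors, Sall4 was replicated in 43 of 60 control and 23 of 50 Rif1-siRNA cells, and its shift of -19.5 points was just short of a large one. Esrrb, a nuclear receptor gene, went from 46 of 60 to 27 of 50 cells (shift -16.5 points). Prdm14, whose product is known to repress differentiation genes, was replicated in 47 of 60 and 34 of 50 cells (shift -4.15 points) and was the locus with the highest share in siRif1. Tfcp2l1, with 36 of 60 and 28 of 50 cells, had the only shift above 0 at this stage, 2.18 points. Klf5, Prdm14 and Tfcp2l1 changed sign under some alternative settings, as did Sox2, while the other 6 loci were later under all 9. Among these settings, a higher minimum of measured cells left every value unchanged.

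**Figure D2:**
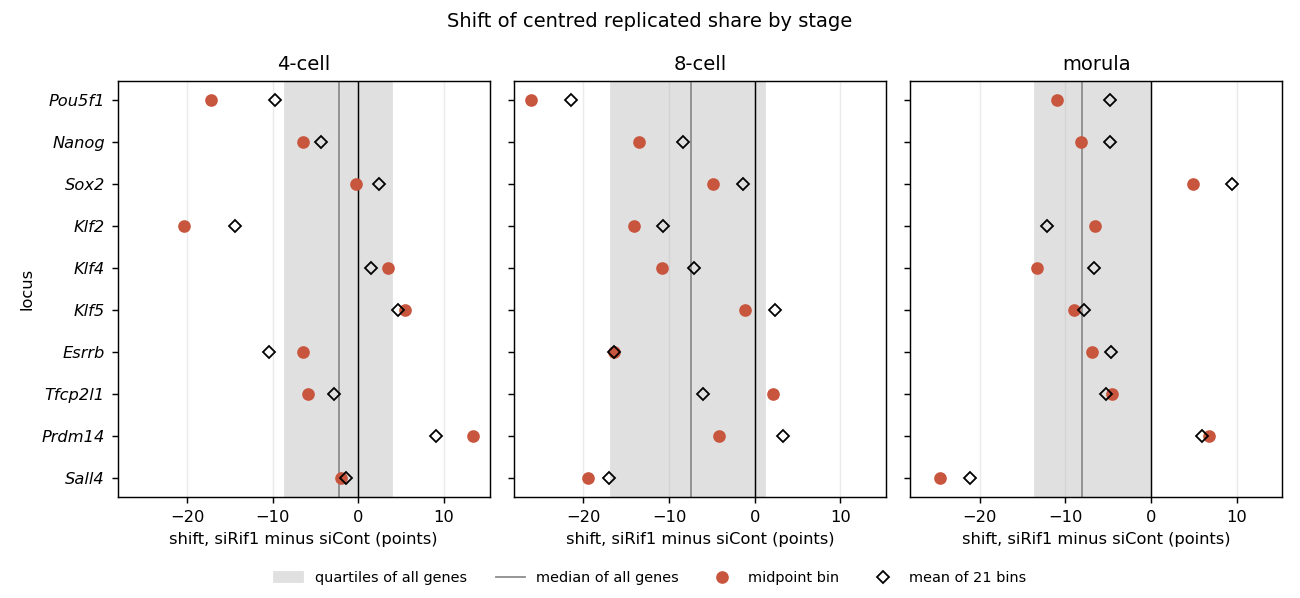
Shift of the centred replicated share (siRif1 minus siCont, points; below 0 is later in siRif1) of each locus at each stage, for the midpoint bin (circles) and the mean of up to 21 bins (diamonds); the grey band spans the quartiles and the grey line is the median of 19406 genes. Pou5f1 lies at -26.2 points at the 8-cell stage and Sall4 at -24.7 points at the morula stage, both outside the band.

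In morulae 8 of 10 loci were later in siRif1, against 74.8% of all genes, and the median shift was -7.52 points, close to that of all genes (-8.04 points). Sall4 was replicated in 37 of 44 siCont cells (84.1%, interval 69.9 to 93.4%). After Rif1 siRNA it was 27 of 45 (60%, interval 44.3 to 74.3%). Its shift of -24.7 points was the 1 large shift of the list, a size that 9.98% of genes reached (1.14% toward earlier, with 0 loci), and only 3.57% of genes had a lower one. The intervals overlapped, here and at the other 9 loci, whereas 1.22% of genes had intervals apart with siRif1 lower and 0.252% with siRif1 higher. Klf4 (shift -13.4 points, 33 of 44 and 28 of 45 cells) and Pou5f1 (-11.0 points, 30 of 44 and 26 of 45 cells) came next. The centred share of Pou5f1, -7.02 points in 8-cell siRif1 embryos, was 7.80 points in siRif1 morulae. Klf5 had a shift of -9.02 points and Nanog one of -8.13, and Esrrb, Klf2 and Tfcp2l1 lay between -6.90 and -4.53.
Sox2 and Prdm14 went the other way. Sox2 was replicated in 24 of 44 control and 27 of 45 Rif1-siRNA cells (shift 4.87 points), and Prdm14 in 30 of 44 and 34 of 45 (shift 6.79 points). Both shifts were above 0 under all 9 alternatives and within counting error. The median of the list followed the scale and cells used: it was 1.27 points on percentile ranks (all genes -2.27), with 4 loci later. With cells balanced over S phase it was -13.3 points (all genes -8.02), and with thinned cells -3.72 points (all genes -6.84). The list thus lay on either side of all genes, depending on the setting.

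At the 4-cell stage 7 of 10 loci were later in siRif1, against 59.6% of all genes, with a median shift of -4.00 points (all genes -2.31). Klf2 was replicated in 34 of 49 siCont cells (69.4%, interval 54.6 to 81.7%). After Rif1 siRNA it was 27 of 51 (52.9%, interval 38.5 to 67.1%). Its shift of -20.4 points was large by a small margin, a size that 3.07% of genes reached (0.953% toward earlier, with 0 loci). Pou5f1 followed with 31 of 49 and 25 of 50 cells (shift -17.2 points). Under all 9 alternatives both loci were later, although Klf2 fell short of 20 points with cells of 20 to 80% replicated (-16.4), balanced cells (-17.1), thinned cells (-14.8) and over 21 bins (-14.5).
Prdm14 had the highest shift, 13.4 points, with 29 of 49 control and 39 of 51 Rif1-siRNA cells replicated, a value that 94.8% of genes fell short of. It stood 16.8 points above its class and was earlier under all 9 alternatives. Klf5 and Klf4 had shifts of 5.45 and 3.49 points, and Nanog, Esrrb, Tfcp2l1, Sall4 and Sox2 lay between -6.48 and -0.274. Intervals overlapped for all 10 loci. All genes with intervals apart made up 0.0567% with siRif1 lower and 0.216% with siRif1 higher.

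Over the 21 bins around each gene the shift was shared by neighbouring bins where it was large. The window mean was below 0 at 6 loci at the 4-cell stage (61.3% of genes), at 8 at the 8-cell stage (73.1%) and at 8 in morulae (77.3%), and no 4-cell window mean reached -20 points (1.17% of genes). Around Pou5f1 all 21 bins were later in 8-cell siRif1 embryos, 13 of them by 20 points or more, with a mean of -21.5 points, and 15.6% of genes had a window mean of -20 points or lower. The window spans chromosome 17 from 35000001 to 36050000 and held 64 protein-coding genes, among them class I genes of the major histocompatibility complex such as H2-D1 and H2-Q10, and Tcf19, Cchcr1 and Psors1c2 had their midpoint in the bin of Pou5f1 itself. Around Sall4 all 21 bins were later at the 8-cell stage (mean -17.0 points, 7 bins by 20 or more) and again in morulae (mean -21.1 points, 15 bins), where 5.55% of genes had such a window mean. Esrrb and Klf2 also had all 21 bins later at the 8-cell stage, with means of -16.5 and -10.7 points. The Esrrb window was later over all 21 bins at the 4-cell stage too, with a mean of -10.5 points. The Klf2 window was later over all 21 bins at all 3 stages, and its mean in morulae, -12.1 points, was lower than the shift at the gene.
The Sox2 window, in which Sox2 is the only protein-coding gene, was earlier in siRif1 morulae over all 21 bins, with a mean of 9.43 points. Since the shortest run of 1 state inside a chromosome was 250 kb and the median run over a core locus 1.38 to 7.40 Mb, bins of a window are not separate measurements. The share of all genes with every bin of the window shifted the same way was not counted.

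**Figure D3:**
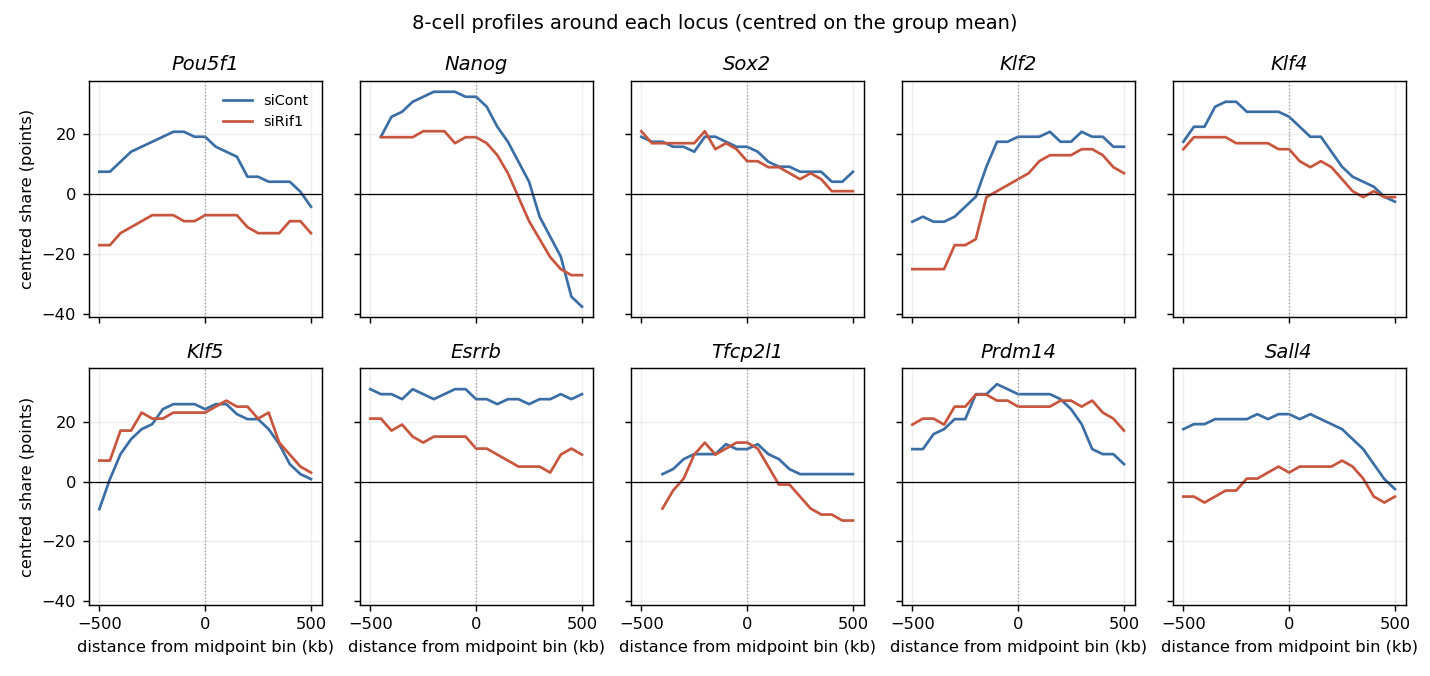
Centred replicated share (points) of 8-cell siCont (blue) and siRif1 (red) embryos against distance from the midpoint bin of each locus (kb). siRif1 lies below siCont in all 21 bins at Pou5f1, Esrrb, Klf2 and Sall4, with mean differences of -21.5, -16.5, -10.7 and -17.0 points, and the mean difference is -1.33 points at Sox2 and 2.32 at Klf5. The share of all genes with every bin lower was not counted.

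The windows differed in shape. Nanog lies near the edge of an early domain: in 8-cell siCont embryos the centred share was 32.5 points at the gene and -37.5 points 500 kb toward higher coordinates, a range of 71.7 points, and in siRif1 the range was 48. The early side of this domain holds Gdf3, a TGF-beta family ligand gene, and Dppa3, a maternal-effect gene, in 1 bin together, with a shift of -17.2 points at the 8-cell stage. Esrrb lay in an even stretch, with a range over its window of 5 points in 8-cell siCont embryos and 18 in siRif1. Tfcp2l1 sat on a small peak in siRif1: the gene was at 12.98 points and the lowest bin of its window at -13.02, whereas in siCont the window ranged over 10 points.

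State of the locus was next set against how far each cell had gone, taking cells below and above 50% of their bins replicated. Pou5f1 in 8-cell siCont embryos was replicated in 21 of 34 cells below 50% and in 20 of 26 above. In siRif1 it was replicated in 12 of 34 cells below (35.3%, interval 19.7 to 53.5%) and 6 of 16 above (37.5%, interval 15.2 to 64.6%). The share of cells with Pou5f1 replicated was thus lower in siRif1 on both sides, and about the same in cells below and above 50% replicated. Cells above 50% had a mean of 65.7% replicated in siCont and 59.9% in siRif1, so the upper sets of cells were not equal. With cells thinned to the same spread of percent replicated the Pou5f1 shift was -27.9 points.
Klf5, in contrast, was replicated in 21 of 34 control and 19 of 34 Rif1-siRNA cells below 50% and in 23 of 26 and 14 of 16 above. Sall4 in morulae was replicated in 18 of 23 control and 14 of 24 Rif1-siRNA cells below 50%, and in 19 of 21 and 13 of 21 above, where cells had a mean of 61.2 and 65.2% replicated. Klf2 at the 4-cell stage was replicated in all 20 siCont cells above 50%, but in 16 of 27 siRif1 cells, sets with a mean of 71.4 and 64.3% replicated. No 4-cell siCont cell past 48.5% replicated had an unreplicated Klf2 locus, whereas in siRif1 this occurred up to 75.7%. Below 50% Klf2 was replicated in 14 of 29 and 11 of 24 cells.

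**Figure D4:**
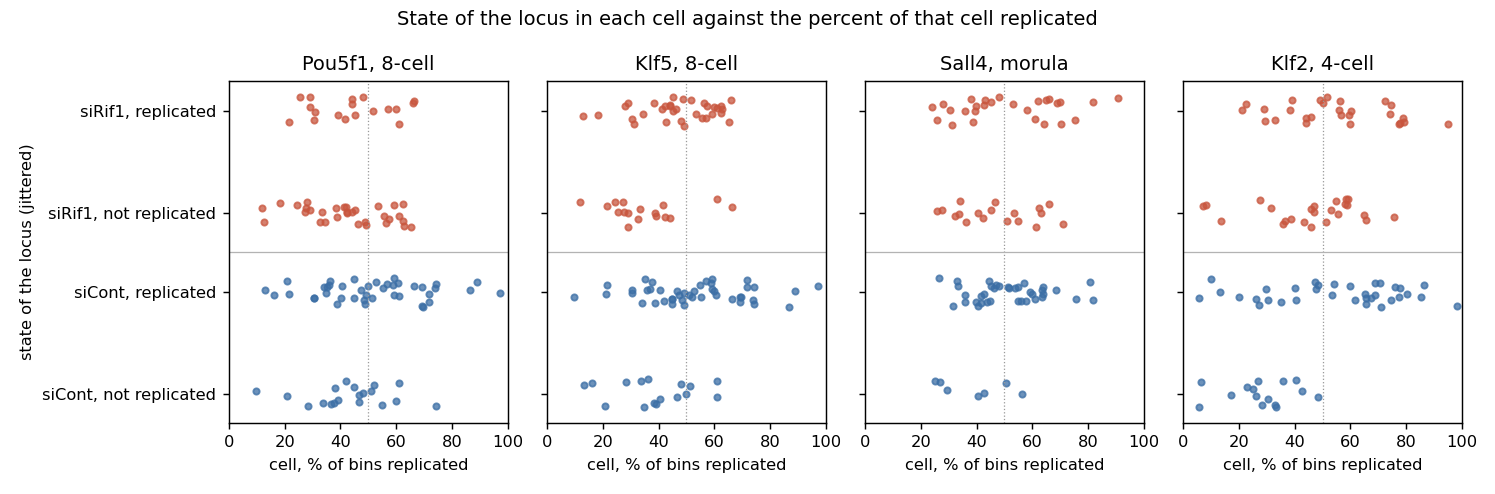
State of 4 loci in single cells (jittered; upper rows siRif1, lower rows siCont) against the percent of bins replicated in the cell; the dotted line marks 50%. Unreplicated Pou5f1 at the 8-cell stage occurs on both sides of the line in both treatments. Unreplicated Klf2 at the 4-cell stage occurs above the line only in siRif1.

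A logistic curve of state on percent replicated gave the percent at which a locus was replicated in 50% of cells, and this point is given where it fell among the percents of the cells. It did so for 6 loci in 8-cell siCont embryos, and for 8 in siRif1. The 5 loci with a point in both had medians of 28.3% in siCont and 34.2% in siRif1. Klf4 passed it at 28.3% in siCont and 38.2% in siRif1, whereas Sox2 did so at 38.8 and 40.6%. Klf5 had 25.2 and 30.6%, and Prdm14 22.9 and 26.8%. Tfcp2l1 was the 1 of these 5 loci with a lower point in siRif1, 34.2 against 42.6%. The curves of Pou5f1 and Nanog in 8-cell siRif1 cells passed no such point within the cells measured. Nor did those of Nanog, Klf2, Esrrb and Sall4 in 8-cell siCont cells. At the 4-cell stage the 10 loci with both points had medians of 33.9% in siCont and 34.97% in siRif1, with 5 higher in siRif1. In morulae 5 loci had both, with medians of 34.1 and 33.7%, and 1 was higher in siRif1. Among loci with both points, a higher point in siRif1 was thus most frequent at the 8-cell stage. That set leaves out Pou5f1, Sall4, Esrrb, Klf2 and Nanog, the loci with the lowest 8-cell shifts. In morulae the count differs from the shifts, which were below 0 at 8 of 10 loci. The points carry no interval and were not computed for all genes, so they do not set these loci or stages apart.

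Counted per cell, the 10 loci together ran ahead of the genome in most cells. In 8-cell siCont embryos the mean cell had 7.18 of 10 loci replicated, 2.28 more than its percent replicated would give, and 13 of 60 cells had all 10. In siRif1 the mean was 5.48 loci, an excess of 1.19, and 2 of 50 cells had all 10. The cell furthest in S phase was 97.3% replicated in siCont and 66.3% in siRif1, so the counts of cells with all 10 do not compare like cells. For 10 average genes the excess would be 1.07 loci with the control siRNA and 0.286 with Rif1 siRNA. At the 4-cell stage the loci had an excess of 1.42 with the control siRNA and 1.11 with Rif1 siRNA (10 average genes 0.586 and 0.366), and in morulae 2.40 and 1.64 (average genes 1.57 and 0.886). In cells 40 to 60% replicated the median was 7 loci in 25 siCont and 6 in 21 siRif1 cells of the 8-cell stage, with ranges of 3 to 10 and 2 to 9, and 8 in 24 siCont and 6 in 13 siRif1 cells of the morula. These ranges overlapped widely, and single cells of like progress differed by more loci than the medians of the treatments did.

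**Figure D5:**
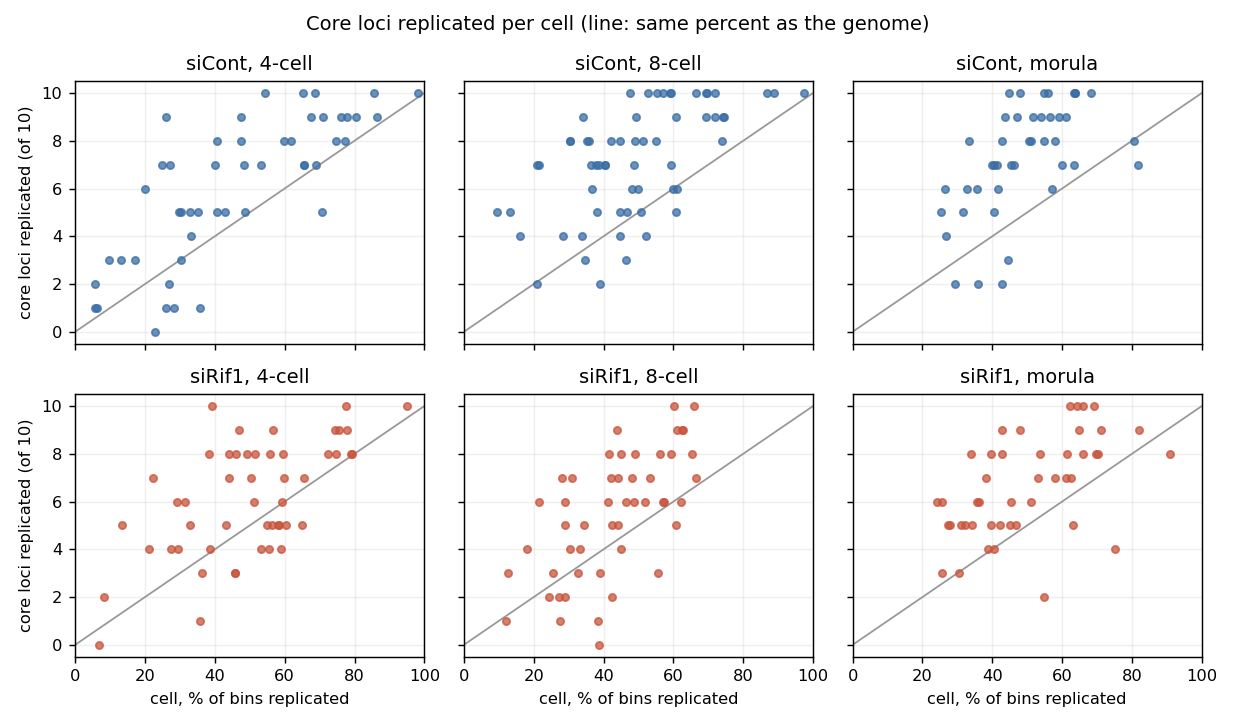
Number of the 10 loci replicated in each cell against the percent of bins replicated in that cell, by treatment and stage; the line marks a count of 1 locus per 10%. Most cells lie above the line in all 6 groups. At the 8-cell stage 13 siCont and 2 siRif1 cells have all 10 loci replicated, in groups that reach 97.3 and 66.3% replicated, so these counts are not of like cells.

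Other genes of early lineages, from lists set together with the core loci, are set beside the same shares of all genes: 71.9% later and 18.2% later by a large shift at the 8-cell stage, 74.8 and 9.98% in morulae. Of 25 further pluripotency genes, 19 were later in siRif1 at the 8-cell stage, 3 of them by a large shift, close to or below those shares, and the median was -5.58 points. In morulae 24 were later, 2 by a large shift, with a median of -12.8 points. Tcl1, a cofactor of AKT, was replicated in 37 of 60 control and 14 of 50 Rif1-siRNA cells of the 8-cell stage (shift -27.5 points), Dnmt3l in 39 of 60 and 16 of 49 (shift -26.2 points), and Stat3, the effector of LIF signalling, in 48 of 60 and 26 of 49 (shift -20.8 points). In morulae Tet1, which oxidises methylated cytosine, went from 40 of 44 to 30 of 45 cells (shift -24.8 points) and Dppa2 from 26 of 42 to 17 of 45 (shift -24.7 points).
Of 16 trophectoderm genes in 15 bins (Krt8 and Krt18 share 1), 15 were later at the 8-cell stage, 1 by a large shift, with a median of -11.3 points beside -12.2 for the core loci, and 15 in morulae, 2 by a large shift (median -7.73 points). Cdh3 had the largest 8-cell shift of that list (-20.8 points), and Id2 and Cdx2 the largest in morulae (-33.5 and -20.4 points). Of 11 primitive endoderm genes, 8 were later at the 8-cell stage, near the share of all genes (median -7.82 points), and 6 in morulae, below it (median -1.70 points), and Col4a1 was the 1 with a large shift, -20.5 points at the 8-cell stage. At the 4-cell stage no gene of these 3 lists had a large shift, a size reached by 3.07% of all genes toward later and 0.953% toward earlier, and the medians were -3.15, -1.13 and -2.94 points.

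The loci share neither a gene-rich nor a gene-poor setting. Their 1-Mb windows held a median of 5.5 protein-coding genes, against 17 around a typical gene, and the counts ran from 1 at Sox2 and 3 at Klf4 to 27 at Klf2 and 64 at Pou5f1. Outside the neighbourhood of the 10 genes, the genes whose centred shares over the 6 groups lay nearest to the median core locus were Map2k5, Cfap20, Rnf17 and Cox16, on chromosomes 9, 8, 14 and 12, with root mean square differences of 2.00 to 2.09 points. Among the core loci Klf4 was nearest to that median (3.40 points), and Prdm14 (10.2), Tfcp2l1 (9.76) and Pou5f1 (9.65) were farthest from it.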

How the data were processed

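Per the labels' protocols, blastomeres were separated from embryos sampled over S phase, and the DNA of each was amplified with its own barcode. The deposited tables hold a state of 0, 1 or NA per 50-kb bin and cell for chromosomes 1 to 19. GRCm38 is the build in the submitters' processing notes, which also name R 4.2.3, Bowtie2 2.5.1, Picard, bedtools and SAMtools. The calling of states and the choice of cells are not given in the sources used here, and depth is unknown. Of 416 labelled cells, 299 had a column, and all were used. The closest 2 cells of a group differed at 6.41% of bins.

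Genes were placed with a RefSeq table (GRCm38.p6) in Python 3.11.15 with pandas 2.3.3. The core genes, the lists and the rule for named genes were chosen with earlier results of these data known. Named were all core genes, genes of 3 lists with shifts of at least 20 points (up to 3 per list and stage), genes sharing a core bin, and the 4 nearest in profile; Gdf3, Dppa3, H2-D1 and H2-Q10 were added after values were seen. Alternatives changed the cells, the centring, the region of the gene, the cell minimum and the size of a large shift. Share, shift and logistic steps were tested on simulated data. P-values across bins or cells were not computed.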

Additional observations from a re-analysis of the deposited data

How the results depend on the processing

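No paired analysis was possible because each group is 1 sample, the results come from no test, and the numbers in the labels only name cells. Of 270 values of single loci under 9 alternatives, 268 stayed within counting error of the reported value and 2 moved beyond it, both for Pou5f1 on percentile ranks (-37.6 points at the 4-cell and -45.8 at the 8-cell stage). The higher cell minimum left every value as it was, since each locus had more measured cells than it asks for. Means over the gene body did so for genes within 1 bin, and centring by each cell changed values little. The count thus overstates how stable the values are. Rank shifts were judged against an error in points of share. No large shift changed sign. The number of loci at least 20 points later at the 4-cell stage was 0 with cells of 20 to 80% replicated (4.03% of genes) and with balanced (1.42%) or thinned cells (5.78%). It was also 0 over 21 bins (1.17%) and at 30 points, and 2 on ranks (18.6%) and at 15 points. At the 8-cell stage it was 3 with balanced cells (26.1% of genes) and at 15 points, 2 on ranks (29.8% of genes) and 0 at 30 points. The counts with balanced cells and on ranks were thus near or below the background. Points of rank are not the same size as points of share. In morulae it was 0 at 30 points. Loci at least 20 points earlier numbered 1 with thinned cells at the 4-cell stage, and 1 with balanced cells and 1 on ranks in morulae. The shares of all genes at 15 or 30 points, and of those earlier under these settings, were not counted. For median shifts a smaller counting error was used, 5.85 to 6.29 points. It treats the loci as independent, although all were read in the same cells, so it cannot decide whether a median moved. By this measure median shifts moved beyond counting error only in morulae on ranks (1.27 points). The control change from the 8-cell stage to the morula was also marked as moved on ranks (-11.2 points). The causes of these moves were not tested. Counting error of a shift, 17.5 to 21.5 points, limits what single loci can show, and embryos were not named, so the spread between them is unknown here.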
